A study of Mus musculus with 12 samples.

Results

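The 3 genes Fabp7, Fabp5 and Fabp3 of the fatty acid binding protein family were followed across 12 libraries of mouse ventral hippocampus, a region that takes part in regulating emotion. They are 3 of the 23183 gene symbols in the deposited tables, and the counts of all transcripts of a symbol were added together. They were chosen by the summed counts of each symbol in all 4 groups and 12 libraries, as the fatty acid carriers of radial glia, astrocytes and neurons. Their own differences between groups are therefore given as a description. Whether each passed the threshold of the fit over all genes is listed beside the share of all genes that did, and nothing is read from it. RNA came from male wild-type C57BL/6J mice that were 8 weeks old when naive, 3 separately numbered mice in each of 4 groups. Controls (C) received no treatment. Stress-susceptible mice (SS) were restrained for 2 hours a day over 14 days and had no running wheel. Effective responders (SES) and ineffective responders (SER) were stress-susceptible mice with the same restraint followed by voluntary wheel running, whose behaviour did or did not improve. The labels differ on the length of running, with 14 days in the titles and 4 weeks in the treatment protocol. Group membership beyond C rests on behaviour, and tissue of the whole region was used, so fewer cells of a type and less RNA per cell cannot be told apart.

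Fatty acid binding proteins are small cytosolic proteins that hold a long-chain fatty acid inside a barrel of beta strands and carry it between membranes, enzymes and the nucleus. Fabp7, also called brain lipid-binding protein, is a classical marker of radial glia, is expressed by astrocytes and oligodendrocyte precursors in the adult brain, and prefers omega-3 fatty acids such as docosahexaenoic acid. Fabp5 is found in neurons, glia and brain endothelium, delivers ligands to the nuclear receptor PPAR-delta and carries endocannabinoids to their hydrolysing enzyme. Fabp3, the heart-type protein, is the form of mature neurons and binds arachidonic acid among others.

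All members have 4 exons on the plus strand of the mm10 (GRCm38) assembly. Fabp7 lies on chromosome 10 (57784923 to 57788450), Fabp5 on chromosome 3 (10012585 to 10016610) and Fabp3 on chromosome 4 (130308738 to 130315463). Their transcripts are short, 804 bases for Fabp7, 987 for Fabp5 and 823 for Fabp3, and their GC content is 41.4%, 45.6% and 53.9% in that order (GENCODE M21 models). Coding sequences of Fabp7 and Fabp3 were 66.7% identical, those of Fabp7 and Fabp5 56.0% and those of Fabp5 and Fabp3 57.1%. No 50-base window of the Fabp7 transcript occurs in a transcript of another gene. Of the Fabp5 windows 21.1% also occur in one of 5 other gene models, among them the pseudogene Fabp5l2, and of the Fabp3 windows 37.3% occur in the pseudogene Fabp3-ps1, the predicted gene Gm10570 or Zcchc17. The treatment of such reads in counting is not stated in the labels, and the levels of Fabp5 and Fabp3 carry that uncertainty.

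The promoter windows of Fabp7 and Fabp3 are shown (RefSeq, GRCm38.p6, plus strand, 250 bases before to 50 after the start). In the fit of all 12 libraries these members had the largest and the smallest difference from C. None is shown for Fabp5, which has no entry in the promoter table used. Capitals mark matches to 6 short motifs searched on both strands.
Fabp7, chr10:57784673-57784972: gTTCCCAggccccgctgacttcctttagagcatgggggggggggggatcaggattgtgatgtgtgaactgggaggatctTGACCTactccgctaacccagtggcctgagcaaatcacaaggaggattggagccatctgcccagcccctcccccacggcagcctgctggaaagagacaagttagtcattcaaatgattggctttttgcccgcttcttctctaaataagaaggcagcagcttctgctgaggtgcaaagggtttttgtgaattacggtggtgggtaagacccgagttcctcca
Fabp3, chr4:130308488-130308787: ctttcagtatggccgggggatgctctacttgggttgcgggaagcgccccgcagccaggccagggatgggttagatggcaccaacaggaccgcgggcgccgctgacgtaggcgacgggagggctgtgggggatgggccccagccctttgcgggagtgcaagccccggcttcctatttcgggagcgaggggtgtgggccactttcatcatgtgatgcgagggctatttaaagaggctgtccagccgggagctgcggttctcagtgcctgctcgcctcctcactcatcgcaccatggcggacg
The Fabp7 window holds the core letters of the site for RBPJ, the DNA-binding partner of Notch (TGGGAA, on the minus strand from position −249 relative to the start), which 24.3% of 20726 promoter windows hold. It also holds the core letters of the element bound by the clock receptors of the REV-ERB and ROR families (AGGTCA, minus strand, position −171), present in 14.6% of windows. The octamer part ATGCAAA, the E-box CACGTG, the TATA box TATAAA and the glucocorticoid element part TGTTCT have no match in it. None of the 6 motifs has a match in the Fabp3 window. No marked matches overlap, and a match of letters is a description of the sequence only.

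Fabp5 was the most abundant member per transcript length in every library. In C it had 134.0 ± 15.5 CPM per kilobase (library-scaled counts, CPM, with TMM factors, divided by transcript length, SD, n = 3), against 78.5 ± 15.8 for Fabp7 and 68.7 ± 10.9 for Fabp3. In SES the level per kilobase was 84.6 ± 11.7 for Fabp5, 53.8 ± 10.5 for Fabp3 and 24.3 ± 4.65 for Fabp7. Fabp7 thus stood above Fabp3 per kilobase in all 3 C mice and below it in 8 of the 9 stress-exposed mice, SER mouse 20 being the exception (43.4 against 42.5).

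Fabp7, the glial carrier, was lower in every stress-exposed mouse than in any control. Its level was 51.2, 76.5 and 61.7 CPM in C mice 2, 8 and 12. It was 26.5, 29.8 and 41.2 CPM in SS mice 18, 19 and 21. The running groups were at or under that range, with 20.7, 15.3 and 22.5 CPM in SES mice 9, 10 and 12 and 19.9, 29.4 and 34.9 CPM in SER mice 6, 19 and 20. The group order was C, SS, SER and SES. SS and SER overlapped, as did SER and SES, while the highest SES mouse lay below the lowest SS mouse. Behind these values stand 229 to 1072 counts per library. The log2 fold change against C was −0.96 ± 0.22 (SE) in SS, −1.70 ± 0.23 in SES and −1.18 ± 0.23 in SER. The C level was 1.94-fold that of SS, 3.24-fold that of SES and 2.26-fold that of SER.

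Fabp5, the carrier shared by neurons, glia and endothelium, was also lower in each stress-exposed mouse than in each control, with a smaller difference. Its level was 115.7, 135.2 and 145.8 CPM in C mice 2, 8 and 12 and 97.0, 86.1 and 90.8 CPM in SS mice 18, 19 and 21. In SES mice 9, 10 and 12 it was 95.8, 81.7 and 73.0 CPM, and in SER mice 6, 19 and 20 it was 85.7, 88.6 and 87.3 CPM. All stressed groups overlapped each other and none reached the controls. The SER mice were the closest to each other, at 87.2 ± 1.45 CPM (SD, n = 3). The log2 fold change against C was −0.54 ± 0.11 (SE) in SS, −0.66 ± 0.11 in SES and −0.60 ± 0.11 in SER. Of its 3 deposited transcripts, NM_010634 held 95.8% to 99.2% of the Fabp5 counts in each library. NM_001272097 had 6 to 54 counts per library and NM_001272098 0 to 2, so an isoform shift was not resolvable at this depth. Fabp7 and Fabp3 have 1 transcript each.

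Fabp3, the form of mature neurons, differed least from C in the fit of all 12 libraries, but was close to Fabp5 in SS and SER. After GC content and length correction Fabp5 differed less in SS (−0.26 against −0.31). Fabp3 had 50.9, 66.9 and 51.9 CPM in C mice 2, 8 and 12 and 40.7, 37.3 and 42.4 CPM in SS mice 18, 19 and 21. SES mice 9, 10 and 12 had 52.1, 45.7 and 35.0 CPM, and SER mice 6, 19 and 20 had 38.1, 42.5 and 35.0 CPM. SS and SER lay below all controls, but SES mouse 9 stood above C mice 2 and 12. The log2 fold change against C was −0.50 ± 0.15 (SE) in SS, −0.35 ± 0.15 in SES and −0.55 ± 0.15 in SER. Zcchc17, which shares 32 windows with Fabp3, had log2 fold changes of −0.23 ± 0.09, −0.29 ± 0.09 and −0.16 ± 0.09 in the same comparisons (edgeR adjusted p = 0.13, 0.174 and 0.377), none called. Its level was nevertheless lower in every stress-exposed mouse (55.1 to 69.9 CPM) than in every control (70.6 to 73.1 CPM), as for 5.1% of genes tested.

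**Figure D1:**
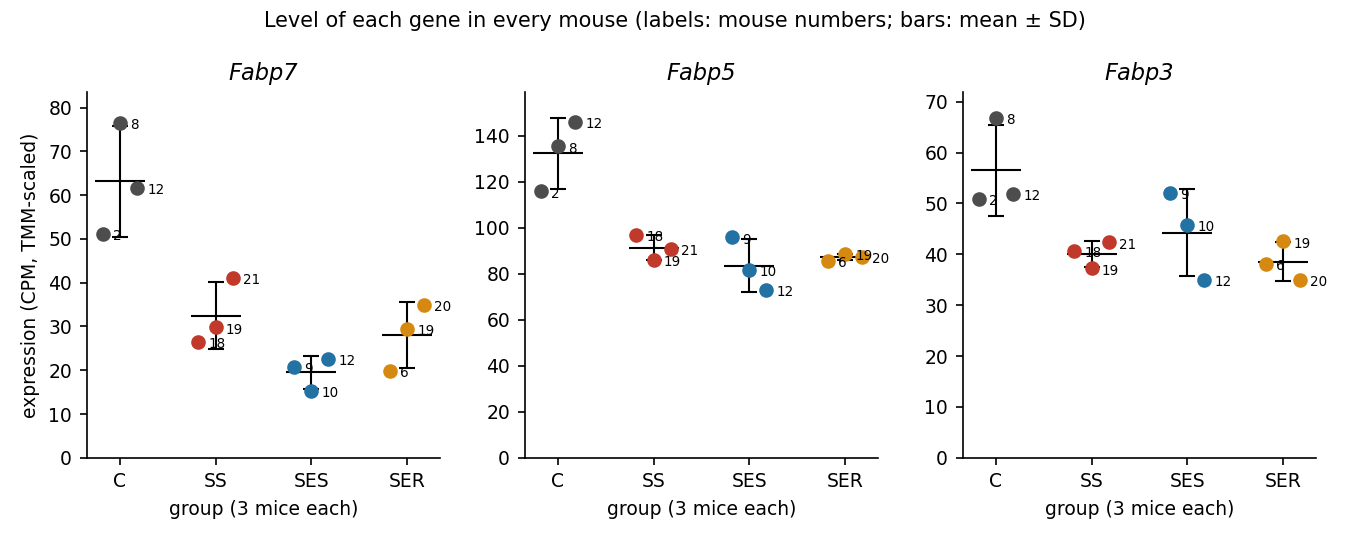
Expression of Fabp7, Fabp5 and Fabp3 (CPM scaled with TMM factors, vertical axes from 0) in each mouse by group; points are mice with their numbers, and bars are the mean with SD over 3 mice. For Fabp7 and Fabp5 the lowest control (51.2 and 115.7 CPM) lies above the highest stress-exposed mouse (41.2 and 97.0 CPM), and for Fabp3 SES mouse 9 (52.1 CPM) lies within the controls.

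In the edgeR fit of all 14541 genes tested, a gene was called at an adjusted p under 0.05. Fabp7 and Fabp5 were called lower in all 3 comparisons with C, and Fabp3 in none, so 2 of 3 members were called each time. Of all genes tested, 4.63% were called lower in SS, 0.0481% in SES and 0.337% in SER. Genes called lower against C in all stressed groups were 0.0413% of those tested, the 6 genes Fabp5, Fabp7, Hmgcs1, Msmo1, Opalin and Tagln3. In the separate comparisons with C, 14.2%, 13.2% and 12.7% of genes lay lower without overlap in SS, SES and SER. Every stress-exposed mouse lay below every control for 5.1% of genes tested, Fabp7 and Fabp5 among them. These comparisons share the C mice, and nothing is read from the calls because the members were picked with these values in view. The calls in SS against C for both genes were lost without C mouse 8, C mouse 12, SS mouse 19 or SS mouse 21. Those of Fabp7 in SES against C were lost without C mouse 8 or any 1 of the SES mice, and those of Fabp5 without C mouse 8, C mouse 12, SES mouse 10 or SES mouse 12. In SER against C the Fabp7 call was lost without C mouse 8, C mouse 12 or any 1 of the SER mice, and the Fabp5 call without C mouse 8, C mouse 12, SER mouse 6 or SER mouse 20. Fabp3, not called in the fit of all 12 libraries, was called in 6 of 17 other settings in SS against C. It was called in 2 of 16 in SER and 0 of 16 in SES.

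A correction of each library for GC content and transcript length made all differences of the members from C smaller. After it, the log2 fold change in SS was −0.58 for Fabp7, −0.26 for Fabp5 and −0.31 for Fabp3. In SES it was −1.49, −0.51 and −0.22, and in SER −0.96, −0.40 and −0.37, in the same order. Fabp7 in SES was then the only one of these 9 differences still called. All 9 kept their negative sign in each setting tried.

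Running groups were next set beside sedentary stressed mice, to see what wheel running went with. For Fabp7 the log2 fold change was −0.74 ± 0.23 (SE) in SES against SS, with groups that did not overlap, and −0.22 ± 0.23 in SER against SS, with groups that did. Of all genes tested, 5.92% lay lower in SES than in SS without overlap. Between SES and SER the Fabp7 difference was −0.52 ± 0.23, and the groups overlapped through SER mouse 6. Fabp5 differed by −0.13 ± 0.11 in SES and −0.07 ± 0.11 in SER against SS, and Fabp3 by 0.14 ± 0.15 and −0.05 ± 0.15. No member was called in these comparisons by edgeR, in which 0%, 0.0481% and 0.0275% of genes tested were called in either direction in SES against SS, SER against SS and SES against SER. At an unadjusted p under 0.05 the same fit had 1310, 2648 and 541 genes in these comparisons, and DESeq2's Wald test called 11 in the first. GC content and length correction enlarged the difference of SES from SS, to −0.90 for Fabp7 and −0.25 for Fabp5. For Fabp7 it was called in 2 of 17 other settings. The Fabp7 difference of SES from SS was −0.86 and called without SS mouse 18, and −0.53 and not called without SS mouse 21. When SS mice 19 and 21 were both left out it was −0.43, and that of SER from SS turned to 0.09.

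**Figure D2:**
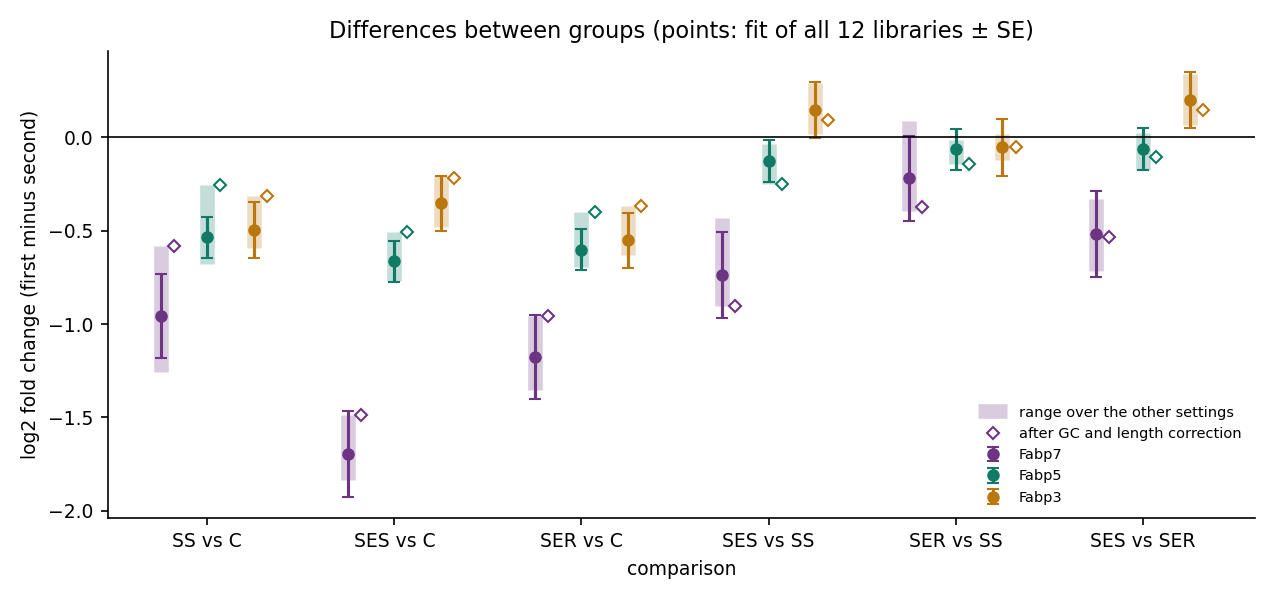
Log2 fold change of each member (vertical axis, first group minus second) in 6 comparisons; points are estimates from all 12 libraries with their SE, pale bars span the other processing settings and open diamonds are values after GC content and length correction. All values against C lie below 0, with Fabp7 in SES lowest at −1.70, while Fabp3 in SES against SS and SES against SER lies above 0 (0.14 and 0.20).

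Ratios of counts between members within a library do not depend on library scaling. They were not corrected for GC content and transcript length, in which the members differ. The ratio of Fabp7 to Fabp5 was 0.477 ± 0.077 in C, 0.358 ± 0.091 in SS, 0.237 ± 0.063 in SES and 0.321 ± 0.085 in SER (SD, n = 3). The ratio of Fabp7 to Fabp3 was 1.11 ± 0.096 in C, 0.808 ± 0.16 in SS, 0.459 ± 0.163 in SES and 0.737 ± 0.241 in SER. In the 9 stress-exposed mice it was under 1, and in the 3 controls above 1, but near ties decide this split. The ratio was 1.006 in C mouse 2 (547 to 544 counts), 0.997 in SER mouse 20 (320 to 321) and 0.972 in SS mouse 21. For Fabp7 to Fabp5 the groups overlapped, with SS mouse 21 (0.454) above C mice 2 (0.442) and 12 (0.423). The ratio of Fabp5 to Fabp3 was 2.37 ± 0.403 in C, 2.28 ± 0.125 in SS, 1.90 ± 0.159 in SES and 2.28 ± 0.206 in SER. Its SES mean was the lowest of the groups, with SES mouse 12 inside the range of C.

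Astrocytes are a main source of Fabp7 in the adult brain, and their other markers were described beside it. Of 12 astrocyte markers, 0 were called in SS against C by edgeR (3 at an unadjusted p under 0.05) and 0 in SES (6), and 4 were called higher in SER. These 4 were the transcription factor Sox9 (0.74 ± 0.11, adjusted p = 0.0142), the glutamate transporter Slc1a2 (0.65 ± 0.12, adjusted p = 0.0325), the glutamine synthetase Glul (0.57 ± 0.12, adjusted p = 0.042) and the glycolytic enzyme Aldoc (0.43 ± 0.10, adjusted p = 0.0473), by edgeR over all genes. At an unadjusted p under 0.05 in SS, Aqp4 (−0.49 ± 0.18) and S100b (−0.41 ± 0.14) were lower and Atp1b2 (0.23 ± 0.11) was higher. In SES Aqp4 was lower (−0.41 ± 0.18), and Aldh1l1, Slc1a2, Sox9, Glul and Gjb6 were higher. The markers thus lay on both sides of 0 in SS and SES. The list median was −0.03 in SS, 0.20 in SES and 0.34 in SER, beside 0.02, 0.00 and −0.01 over all genes tested. Summed, the 12 markers had 9347 to 10314 CPM in C, 9042 to 10721 in SS, 10524 to 12300 in SES and 12795 to 14546 in SER. All SER calls but that of Sox9 were lost after GC content and length correction, and the call of Sox9 was lost without SER mouse 6 or SER mouse 20. Those of Slc1a2 and Glul were lost without any 1 of the C mice, SER mouse 6 or SER mouse 20, and that of Aldoc without any 1 of the C or SER mice.

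Set against the mean log2 level of the 12 astrocyte markers in the same library, Fabp7 was lower in all stress-exposed mice than in all controls. The difference from the C mean was −0.27, 0.26 and 0.01 in C mice 2, 8 and 12. It was −1.33, −0.95 and −0.38 in SS mice 18, 19 and 21. It was −1.78, −2.09 and −1.61 in SES mice 9, 10 and 12, and −2.07, −1.32 and −1.12 in SER mice 6, 19 and 20. Leaving out any 1 marker kept the 9 stressed mice between −2.14 and −0.35. SER mouse 6, which had the highest astrocyte marker level of all libraries, had the second lowest Fabp7 level.

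**Figure D3:**
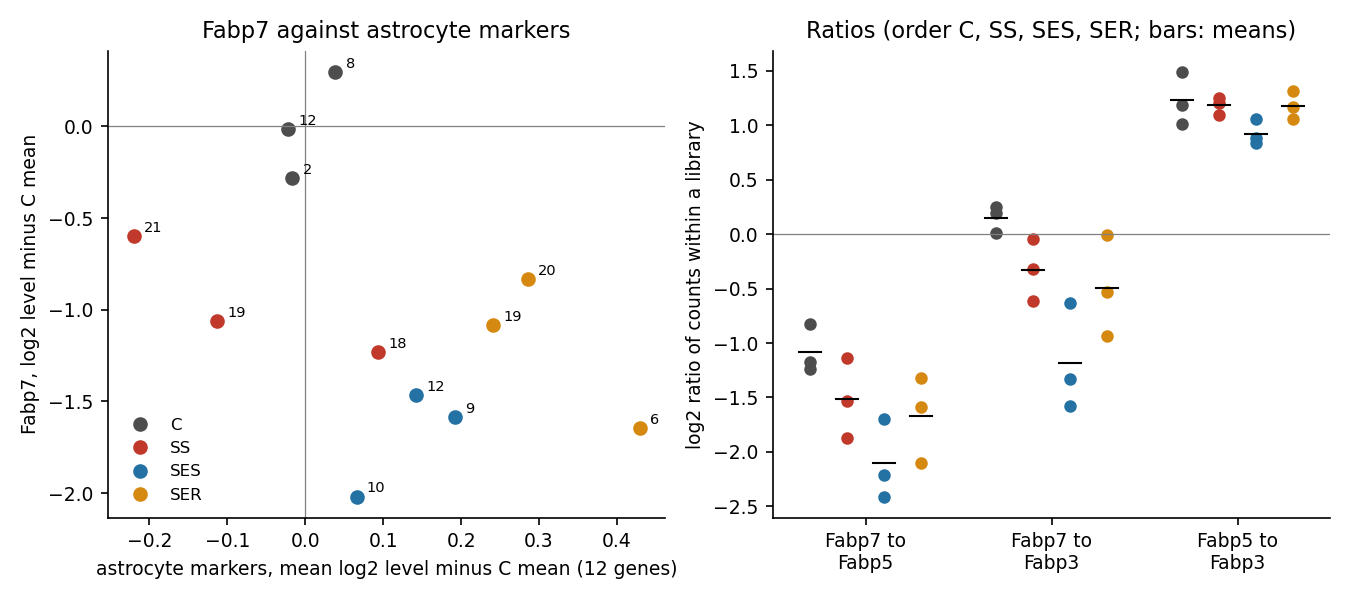
Left, log2 level of Fabp7 against the mean log2 level of 12 astrocyte markers, both minus the C mean, 1 point per mouse with its number; right, log2 ratios of counts between members within each library, with group means as bars. The SER mice lie to the right at 0.24 to 0.43 on the astrocyte axis while lying below every control on the Fabp7 axis.

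Other lineages that can hold Fabp7 were described the same way. Of 9 tested markers of radial glia and neural stem cells 1 was called lower in SS, the stem cell and astrocyte gene Hopx (68.2 ± 5.11 CPM against 100.2 ± 25.5 in C, SD, n = 3; log2 fold change −0.56 ± 0.16, edgeR adjusted p = 0.0428), a call lost after GC content and length correction (adjusted p = 0.327) and without C mouse 8, C mouse 12, SS mouse 19 or SS mouse 21. In SES and SER Hopx had log2 fold changes of −0.73 ± 0.16 and −0.31 ± 0.16 (adjusted p = 0.104 and 0.311). The other 8 markers were not called in any comparison with C and lay on both sides of 0. In SS the intermediate filament genes Nes and Vim had −0.29 ± 0.25 and −0.08 ± 0.17, the stem cell factor Sox2 −0.15 ± 0.13 and Lpar1 −0.83 ± 0.38, while Hes5 had 0.14 ± 0.28, Prom1 0.19 ± 0.16 and Tnc 0.24 ± 0.28. In SES Vim had 0.59 ± 0.17 and Prom1 0.60 ± 0.15 (edgeR adjusted p = 0.142 and 0.126), against −0.97 ± 0.38 for Lpar1 (adjusted p = 0.241). In SER Vim had 0.48 ± 0.17 and Sox2 0.42 ± 0.13 (adjusted p = 0.156 and 0.113). The list median was −0.15, −0.22 and −0.03 in SS, SES and SER. The 6 oligodendrocyte precursor markers had 0 calls and medians of 0.20, 0.22 and 0.23. The 7 tested neuroblast markers had 0 calls and medians of 0.41, 0.16 and 0.07.

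Several other measures moved between the same libraries, and their part in the Fabp differences was not tested. Of 8 endothelial markers 1 was called lower in SS (Itm2a) and 2 in SER (Itm2a and Ly6c1), with medians of −0.27 in SS, −0.40 in SES and −0.67 in SER, and a summed level of 153.8 to 230.8 CPM in C, 115.0 to 176.6 in SS, 104.1 to 168.0 in SES and 101.9 to 119.1 in SER. Of 8 myelin markers 1, Opalin, was called lower in each group, with medians of −0.42, −0.48 and −0.47. Of 10 neuronal markers 1, Stmn2, was called lower in SS, and the summed level was 8859 to 9466 CPM in C and 7918 to 8884 in the stressed groups. Thalamic markers, which report tissue next to the dissected region, had 0 of 6 called and medians of −0.54, −1.03 and −1.10, with 138.7 to 342.5 CPM in C, highest in C mouse 2, the control with the lowest Fabp7. The choroid plexus list summed to 3713 CPM in C mouse 2 and 5389.9 in SS mouse 18 against 12.3 to 39.4 in the other C and 20.2 to 24.96 in the other SS mice. It summed to 891.2 to 4950.4 CPM in SES and 63.9 to 1155 in SER. Without C mouse 2 and SS mouse 18 the Fabp7 log2 fold change was −0.98 in SS, −1.84 in SES and −1.31 in SER against C. Of 6 nuclear noncoding RNAs 5 were called higher in SS against C and 0 in SES or SER, with medians of 2.63, 1.24 and 0.35. Among them Malat1 had 262.8 to 505.5 CPM in C and 505.0, 3761 and 5257 in SS mice 18, 19 and 21. It had 1068 to 1974 CPM in SES and 988.0 to 1472 in SER, so all 6 running mice stood above every control. SS mouse 18 had Malat1 within 1 CPM of C mouse 2 and the lowest Fabp7 of the SS mice. It is 1 library, and it also had the highest choroid plexus and thalamic sums of the SS mice (5389.9 and 261.3 CPM). As the only SS mouse it gave a Fabp7 log2 fold change of −1.26 against C. Whether Malat1 and Fabp7 levels are linked was not tested. Library totals ran from 9323607 to 15707516 counts.

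Other members of the intracellular lipid-binding protein family were rare. The liver form Fabp1 and the testis form Fabp9 had 0 counts in all libraries, which allows up to 0.189 to 0.327 CPM at 3 counts, depending on the library. The intestinal Fabp2, the ileal Fabp6 and Fabp12 had at most 2 counts in any library. The fat cell form Fabp4 had at most 5, in SS mouse 18, and the myelin protein Pmp2 and the retinol carrier Rbp7 at most 3. The retinol carrier Rbp2 had at most 6. The retinoic acid carriers Crabp1 and Crabp2 passed the filter, at 0.798 ± 0.324 and 1.54 ± 0.376 CPM in C (SD, n = 3), and neither was called in any comparison by edgeR.

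The genes around the carriers in fatty acid handling, and 16 Notch and stem cell regulators of glial genes, were described over 8 lists with 97 tested genes. Of these, 6 were called higher and 1 lower in SS against C, a share of 7.22% beside 9.83% of all genes tested. In SES 1 was called higher and in SER 2, shares of 1.03% and 2.06% beside 0.179% and 1.19%. The calls include the regulators Notch2 in SS and Sox9 in SER, which are not genes of fatty acid handling. In SES against SS 0 were called by edgeR, with 8 at an unadjusted p under 0.05 and 0 in DESeq2's Wald test. The calls in SS against C did not hold without C mouse 8, SS mouse 19 or SS mouse 21 (0 genes in each case), 1 held without C mouse 12, and 18 pathway genes were called without SS mouse 18.

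For uptake and activation, 2 of 16 genes were called higher in SS and 0 lower. They were Mfsd2a, the carrier of lysophosphatidylcholine with docosahexaenoic acid across the blood-brain barrier (30.7 CPM against 16.8 in C, log2 fold change 0.87 ± 0.21, edgeR adjusted p = 0.0278), and the fatty acid transporter Slc27a1 (0.80 ± 0.17, adjusted p = 0.0244). Mfsd2a also rose in SES (40.0 CPM, 1.25 ± 0.21, adjusted p = 0.0349), a call lost without C mouse 8, C mouse 12 or any 1 of the SES mice. At an unadjusted p under 0.05 in SS, Acsl5 (−0.29 ± 0.09), Scp2 (−0.28 ± 0.10), Acsl4 (−0.26 ± 0.10) and Dbi were lower and not called. Dbi, the acyl-CoA binding protein, had −0.31 ± 0.12 in SS (adjusted p = 0.119), which turned to 0.03 after GC content and length correction. Of 18 oxidation genes, Cpt1c, a neuronal carnitine palmitoyltransferase homologue, rose (0.48 ± 0.13, adjusted p = 0.0382) and Hadhb, the thiolase subunit of the mitochondrial trifunctional protein, fell (−0.48 ± 0.09, adjusted p = 0.0223) in SS. Of 15 synthesis genes, the regulator Srebf1 rose in SS (0.55 ± 0.14, adjusted p = 0.0321) and SER (0.67 ± 0.14, adjusted p = 0.0417), and Fasn, the fatty acid synthase, rose in SS (0.34 ± 0.10, adjusted p = 0.0412) but turned to −0.13 after GC content and length correction, which left 0 pathway genes called in SS. The Srebf1 call in SER was lost without C mouse 8, C mouse 12 or any 1 of the SER mice.

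Among 12 nuclear receptors and partners that sense fatty acids, 0 were called in any comparison with C. Ppard, the receptor served by Fabp5, had log2 fold changes of −0.07 ± 0.14, −0.02 ± 0.14 and −0.07 ± 0.14 in SS, SES and SER. Ppara had 0.07 ± 0.27, 0.24 ± 0.27 and 0.49 ± 0.27, and Rxra 0.17 ± 0.13, 0.23 ± 0.13 and 0.30 ± 0.13. Of 10 storage and lipolysis genes and 8 endocannabinoid genes 0 were called in those comparisons. The endocannabinoid hydrolase Faah, to which Fabp5 and Fabp7 deliver anandamide, had 0.38 ± 0.13 in SS (adjusted p = 0.0794) and the receptor Cnr1 −0.20 ± 0.11 (adjusted p = 0.286). The lipid droplet gene Plin4, picked out after its values were seen, had the largest difference in these lists, 57.2 ± 4.78 CPM in SES and 9.44 ± 5.66 in C (SD, n = 3; 2.62 ± 0.63, adjusted p = 0.123), and did not pass.

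Genes known to act upstream of Fabp7 in glia were also listed. Of 16 Notch and stem cell regulators, Notch2 rose in SS (0.54 ± 0.15, adjusted p = 0.0378) and Sox9 in SER (values above). Notch1 had 0.32 ± 0.18, 0.39 ± 0.18 and 0.72 ± 0.18 in SS, SES and SER (adjusted p = 0.279, 0.312 and 0.073). Its target Hes5 had 0.14 ± 0.28, −0.22 ± 0.28 and 0.22 ± 0.28, and Pax6, a radial glia transcription factor, −0.26 ± 0.13, −0.13 ± 0.12 and 0.25 ± 0.12. The clock receptor gene Nr1d1 had 0.20 ± 0.17, −0.03 ± 0.17 and 0.27 ± 0.17, and binding of its product to the Fabp7 window was not tested. The list medians were 0.06, 0.09 and 0.29, beside 0.02, 0.00 and −0.01 over all genes tested, and members lay on both sides of 0 in each comparison.

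**Figure D4:**
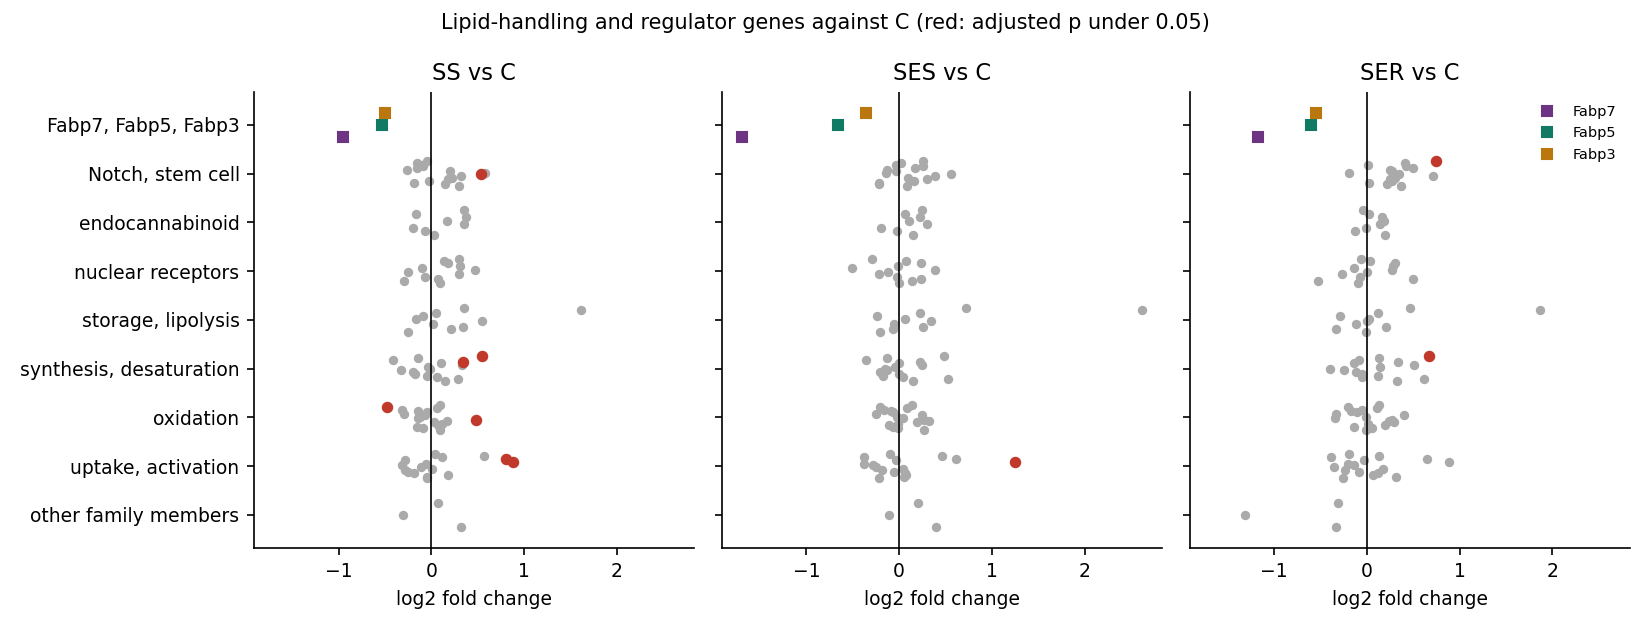
Log2 fold change against C in SS, SES and SER (horizontal axes) for each tested gene of 8 lists of lipid handling and glial regulators (rows), red where called by edgeR and grey where not, with the 3 members as squares in the top row. Fabp7 lies to the left of every listed gene in SS and SES, at −0.96 and −1.70.

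Genes whose levels over the 12 libraries were most like each member were ranked by Pearson's r of log2 CPM among 9628 genes with a mean of at least 10 CPM. These points share libraries and scaling and fall into groups, so r is a description. For Fabp7 they were the nucleolar gene Lyar (r = 0.92), the sterol synthesis enzyme Hmgcs1 (0.91), the mitochondrial creatine kinase Ckmt1 (0.90), the ribonucleoprotein gene Nop58 (0.89) and the sterol demethylase Cyp51 (0.88). By Spearman's rho Lyar and Ckmt1 stayed among the first 5, with Insig1, Chrna4 and Fdps. For Fabp5 they were Chtop, Lyrm5, Praf2, Tagln3 and Uqcrb (0.94 to 0.96), and for Fabp3 Cfdp1, Mrpl42, Tmem68, Zc3h15 and Sla2 (0.92 to 0.96). Ranked on deviations from the group means, none of the 5 genes first for Fabp7 or Fabp5 returned, and for Fabp3 Mrpl42 did (0.93).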

How the data were processed

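Total RNA of ventral hippocampus was sequenced from 12 mice as directional libraries (NEBNext Ultra II), per the labels' protocols. Reads were aligned with TopHat to mm10, per the submitters' processing notes. Neither the program that counted reads nor its strand handling or gene models are named in the labels. The authors deposited estimated counts per RefSeq transcript for each library, all of them whole numbers, so rounding changed none. Library totals were 9323607 to 15707516 counts, and 3 counts correspond to 0.189 to 0.327 CPM, which covers counting error only.

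Counts were summed by gene symbol (33299 transcripts, 23183 symbols). Genes passing edgeR's filterByExpr (minimum count 10; 14541 genes) were fitted with edgeR 4.0.16 (R 4.3.3) by the quasi-likelihood F test on all 12 libraries, with TMM factors (0.970 to 1.039) and Benjamini-Hochberg adjustment, called at an adjusted p under 0.05. All 3 members passed the filter. The SE of a log2 fold change is its size divided by the square root of F. The pipeline was tested on simulated data. Groups and mouse numbers came from the sample titles. The edgeR p-values rest on a spread between mice pooled over all 4 groups of 3 (8 residual degrees of freedom) and estimated with help from other genes. It therefore includes groups outside the comparison. Alternatives were other scaling factors, DESeq2 1.42.0, limma-voom (limma 3.58.1), other filters, transcript rows, 2-group fits, GC content and length correction (98.9% of genes had both), and leaving out libraries. The members and the 22 gene lists were chosen with earlier results of these data known. Non-member genes were named by a rule: called genes of the pathway lists (up to 4 per direction with the smallest p), Ppara, Ppard, Rxra, Dbi, Faah, Cnr1, Pax6, Hes5, Notch1, Sox9 and Nr1d1 always, and the 5 genes most like each member, with predicted genes, microRNAs and small nucleolar RNAs left out. Marker genes were named where called, with other radial glia markers beside them. Plin4, Acsl4, Acsl5, Scp2, Crabp1, Crabp2 and the astrocyte markers not called were added after their values were seen. Results on withheld items are not reported here.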

Additional observations from a re-analysis of the deposited data

How the results depend on the processing

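No paired analysis was made, because each library is 1 mouse in 1 group. Mouse number 12 occurs in C and SES and number 19 in SS and SER, and the sample titles state no pairing between groups. Against C, all differences of the members stayed negative in every setting. The calls did not: they rest on 3 mice per group, and single libraries decide many. Sequencing of 9323607 counts or more leaves the members well above the floor, so depth limits the other family members and not these. The cause of each change below was not tested.

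DESeq2's Wald test called 2202 genes in SS against C, 11 in SES against SS, 536 in SER against SS, 408 in SES against C and 740 in SER against C, with 6, 6 and 12 pathway genes in SER against SS, SES against C and SER against C. Without a filter 15 genes were called in SER against SS. On transcript rows 2, 4 and 25 were called in SS, SES and SER against C, with 0, 0 and 1 pathway genes, and 0 pathway genes in SER against SS. With GC content and length correction 0, 12 and 18 genes were called in SS, SES and SER against C and 13 in SER against SS, with 0 pathway genes in SS and 1 in SER against C. In that setting SS against C had log2 fold changes of −0.58 for Fabp7, −0.26 for Fabp5 and −0.31 for Fabp3, and turned Fasn to −0.13 and Dbi to 0.0295. SER against C had −0.40 for Fabp5 and −0.37 for Fabp3, and SER against SS −0.15 for Fabp5. With only the 2 groups compared 0, 160 and 281 genes were called in SS, SES and SER against C and 3 in SER against SS, with 0 pathway genes in SS against C, 3 in SES against C and 0 in SER against SS.

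Without C mouse 2 and SS mouse 18 there were 3644, 1430, 2573, 929 and 796 genes, and 17, 7, 19, 10 and 9 pathway genes, in SS against C, SES against SS, SER against SS, SES against C and SER against C, and Fabp5 was −0.68 in SS against C. Without SS mice 19 and 21, a setting chosen after seeing the data, 0 genes and 0 pathway genes were called in SS against C and 4 and 0 in SER against SS, where Fabp5 was −0.14.

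Leaving out 1 mouse at a time gave 0 to 3797 genes in SS against C, 0 to 1283 in SES against SS, 4 to 2434 in SER against SS, 0 to 27 in SES against C and 6 to 173 in SER against C. Pathway genes numbered 0 to 18, 0 to 6, 0 to 19, 0 to 2 and 0 to 3 in that order. Against C the members ranged from −1.17 to −0.80 (Fabp7), −0.63 to −0.46 (Fabp5) and −0.57 to −0.36 (Fabp3) in SS, −1.82 to −1.53, −0.77 to −0.57 and −0.48 to −0.21 in SES, and −1.36 to −0.97, −0.69 to −0.51 and −0.63 to −0.41 in SER. Against SS they ranged from −0.86 to −0.53, −0.23 to −0.04 and 0.02 to 0.29 in SES, and −0.40 to −0.01, −0.11 to −0.01 and −0.12 to 0.02 in SER. Between SES and SER they ranged from −0.72 to −0.33, −0.18 to 0.02 and 0.06 to 0.34.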
